A study of Arabidopsis thaliana with 8 samples.

Results

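The regions described here are the 312 peaks on chromosomes 1 to 5 in the peak list of the co-10 control, out of 380 peaks in that list and 3686 in the co-10 and 35S:CO lists together. All rows of the co-10 list on the nuclear chromosomes were taken, so the members were chosen by the authors' peak calling. The calling scores signal over background in co-10, at thresholds not given in the sources used here. The p-values and fold enrichments, and the pileup, background and width that go with them, are given below as descriptions, with no test. A block of chromosome 2 with summits between 3.2 and 3.5 Mb held 44 of the members and was described apart from the other 268.

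Chromatin immunoprecipitation followed by sequencing (ChIP-seq) was carried out on Arabidopsis thaliana seedlings with an antibody against CONSTANS (CO). The co-10 plants are mutant for CO and were the control. The 35S:CO plants overexpress it, and the 35S promoter named in the genotype is a viral promoter active in most plant tissues. All seedlings were 7 days old, grown in long days and crosslinked with 1% formaldehyde for 20 min and 1 mM disuccinimidyl glutarate (DSG) for 10 min. Each genotype had 2 immunoprecipitates and 2 inputs, 8 samples in all. The labels do not say how many transgenic lines were used or what lesion co-10 carries. Each genotype has 1 list, taken as called on pooled replicates. No difference between the lists could therefore be set against replicate spread, and none was tested. A peak list cannot show whether the tissue expresses its marker genes.

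CO is a B-box protein that regulates transcription in photoperiodic flowering. A control immunoprecipitate from plants without the target shows which chromatin the procedure recovers without it. In Arabidopsis, the centromeres are flanked by heterochromatin rich in transposons and their remnants, which RefSeq often annotates as pseudogenes. The genes for 45S ribosomal RNA lie in long tandem arrays, of which an assembly holds a few units. The region beside the centromere of chromosome 2 is known to carry a large insertion of mitochondrial DNA.

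The nuclear co-10 peaks were short and mostly shallow. Their median width was 388 bp (interquartile range 304 to 519), and 67 of them had the shortest width of 298 bp. The median fold enrichment over background, the authors' value in the list, was 4.63 (3.90 to 5.27). The number of fragments over each summit (the pileup) and the number expected there (the background) were recovered from the deposited fold enrichment and p-value. The members are described in 3 groups, the block, which was set by position, and 2 groups outside it that were set by background. Outside the block, 230 peaks had a background of 5.58 fragments or less and 38 had 17.4 or more, and the limit of 10 was put between them. The backgrounds of the block peaks, at 4.33 to 11.4 fragments, overlapped the upper end of the low-background group. The weakest member had a −log10 q of 1.66, and weaker regions are not in the list.

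The gene that the antibody targets carried the strongest peak. This peak, on chromosome 5 from 5171197 to 5172836, had its summit where CO (AT5G15840) and AT5G15843 overlap. The fold enrichment was 63.9, with 155 fragments at the summit and 1.44 expected. The next member reached 9.13. The overlapping 35S:CO peak was wider, at 1927 against 1640 bp, and had a lower fold enrichment of 15.3 and a higher background of 6.14. Its summit lay 61 bp from that of co-10. The peak ranked 290 among the 3287 nuclear 35S:CO peaks by fold enrichment. How signal at CO itself relates to binding was not tested.

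The block of chromosome 2 stood between 3248106 and 3475264. The nearest member before it ended 343 kb away, with a background of 1.02 fragments, and the nearest after it began 96.2 kb away, with 0.85. Those values compare with 5.63 and 7.09 at the outermost block peaks. All 44 block peaks had another block peak within 10000 bp. Their fold enrichments lay between 2.47 and 5.44 with a median of 3.47, below the median of 4.78 over the other 268 nuclear members. Their pileups were 16 to 35 fragments with a median of 23, above the median of 9 in the low-background group and below all 38 high-background members. The median background of 5.85 was 6.12 times that of the low-background peaks.

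The annotation at the block summits was close to that of the bases of the block. Summits lay in protein-coding genes for 19 of 44 (43.2%, Wilson 95% interval 29.7 to 57.8) and within 1000 bp of one for 8. Another 10 lay in pseudogenes, 2 in other RNA annotations and 5 farther away. Of the bases of the block, 37.1% belong to protein-coding genes, 20.6% to their 1000 bp flanks and 24.2% to pseudogenes, against 43.2%, 18.2% and 22.7% of the summits. The strongest block peak had its summit in the pseudogene AT2G07682 (3293551 to 3294061, 5.44). The next lay in AT2G07749 (3248106 to 3248788, 4.52) and in AT2G07672 (3257265 to 3257873, 4.40). A peak beside AT2G07768 reached 4.19 and a peak in AT2G07728 reached 4.11. The peak from 3326135 to 3326556 (4.17) had no annotation within 1000 bp. The gene table gives no functional name for these loci. The transcribed pseudogene AT2G07717 held 3 summits, at 3.41, 3.56 and 3.78.

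The block peaks were laid beside the 45 mitochondrial peaks of the same co-10 list, which are not members. The mitochondrial peaks had a median background of 5.45 fragments, close to the 5.85 of the block. Their median fold enrichment was 3.60, against 3.47. When the mitochondrial coordinates were reversed and slid along the block, at most 19 of the 44 block peaks met a mitochondrial peak. This count was reached at 3 of the positions tried, in steps of 20 bp, and the values below are for 1 of them. A match required an overlap of 50% of the shorter peak. The best position more than 2000 bp away, or in the unreversed orientation, gave 11.

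Most matches lay in the first 52.3 kb of the block, from 3248106 to 3300402. The ends of this stretch were set at matched peaks after the matches were seen. A single shift keeps all matches in the same order, so their order is no further result. In this stretch, 16 of the 20 block peaks matched 16 of the 17 peaks between 230139 and 282899 of the mitochondrial genome. From the first to the last match, 3248106 to 3365755, the 19 pairs stood among 32 block and 24 mitochondrial peaks. The block peak from 3248106 to 3248788 was 683 bp wide with a pileup of 29. Its mitochondrial counterpart, from 282217 to 282899, was also 683 bp wide with a pileup of 29. The strongest block peak, at AT2G07682, met the strongest mitochondrial peak, from 236932 to 237442. Both were 511 bp wide, with fold enrichments of 5.44 and 6.20. Over the 19 matched pairs, the median difference was 55 bp in width and 108 bp in summit position. The other 25 block peaks had no match at this position, and 12 of them lay beyond the last matched one. The position was chosen because it gave the most matches, so the count is a description.

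**Figure D1:**
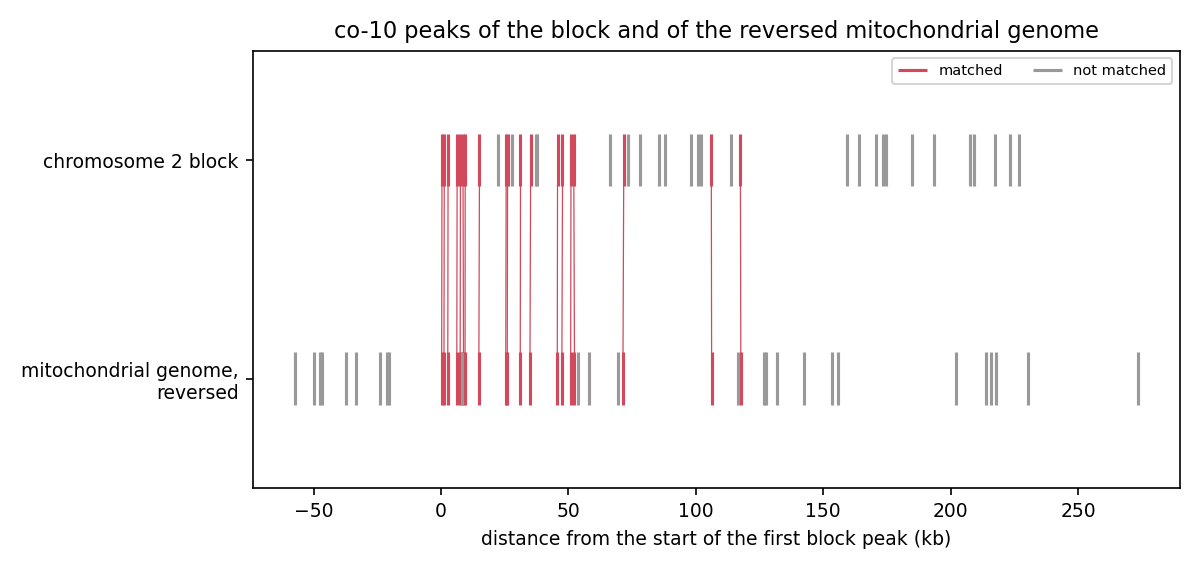
Positions of the 44 co-10 peaks of the chromosome 2 block (upper track) and of the 45 co-10 mitochondrial peaks in reversed order (lower track), in kb from the start of the first block peak. Red bars joined by lines are the 19 matched peaks, which lie mostly in the first 52.3 kb. Grey bars have no match at this position.

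In 35S:CO, the block held 4 peaks and the mitochondrial genome 1. The block peaks of 35S:CO at 3249031 to 3249382, 3295360 to 3295822 and 3306065 to 3306463 had backgrounds of 11.5, 14.4 and 11.2 fragments. The nuclear 35S:CO peaks with a background of at most 10 had a median of 3.05. Under the same reversal, all 3 fell on co-10 mitochondrial peaks. The peak at 3249031 also overlapped the single 35S:CO mitochondrial peak, by 247 bp. The remaining 35S:CO peak, at 3228786 to 3229082, lay before the first co-10 block peak and had a background of 1.60. Of the 44 co-10 block peaks, 2 overlapped a 35S:CO peak. How reads that match both genomes were placed is not given in the sources used here, so signal from the block and from mitochondrial DNA cannot be told apart.

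UBQ13 (AT1G65350), a polyubiquitin gene on chromosome 1, is known to carry a mitochondrial DNA insertion in the Columbia accession. The co-10 list had a peak there from 24275866 to 24276172, with a fold enrichment of 4.05. Its background was 4.18 fragments, and it was 1 of 10 among the 230 low-background peaks with more than 3. No 35S:CO peak overlapped it. This gene was picked after its values were seen, and the source of its signal was not tested. The other low-background peaks with a background over 3 fragments were in pseudogenes or within 1000 bp of one.

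Away from the block, the members gathered around the gene-poor centre of each chromosome. The centre was taken as the middle of the 1 Mb window with the fewest protein-coding genes, as a stand-in for the centromere. Of 268 summits, 208 lay within 3 Mb of it (77.6%, Wilson 95% interval 72.3 to 82.2), a zone with 25.0% of the bases. In the 35S:CO list the share was 14.9% (13.7 to 16.1). Within 1 Mb lay 101 co-10 summits. The median distance was 1.67 Mb on chromosome 1, 1.38 on chromosome 2, 1.65 on chromosome 3, 1.18 on chromosome 4 and 1.13 on chromosome 5. With a 2 Mb window the centre itself moved by 0.1 Mb (chromosome 5) to 0.9 Mb (chromosome 3). Differences between these medians are therefore not resolved. For 35S:CO the medians ran from 6.47 to 9.11 Mb. Chromosome 2 had the most members outside the block, 67, and chromosome 3 the fewest, 38.

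**Figure D2:**
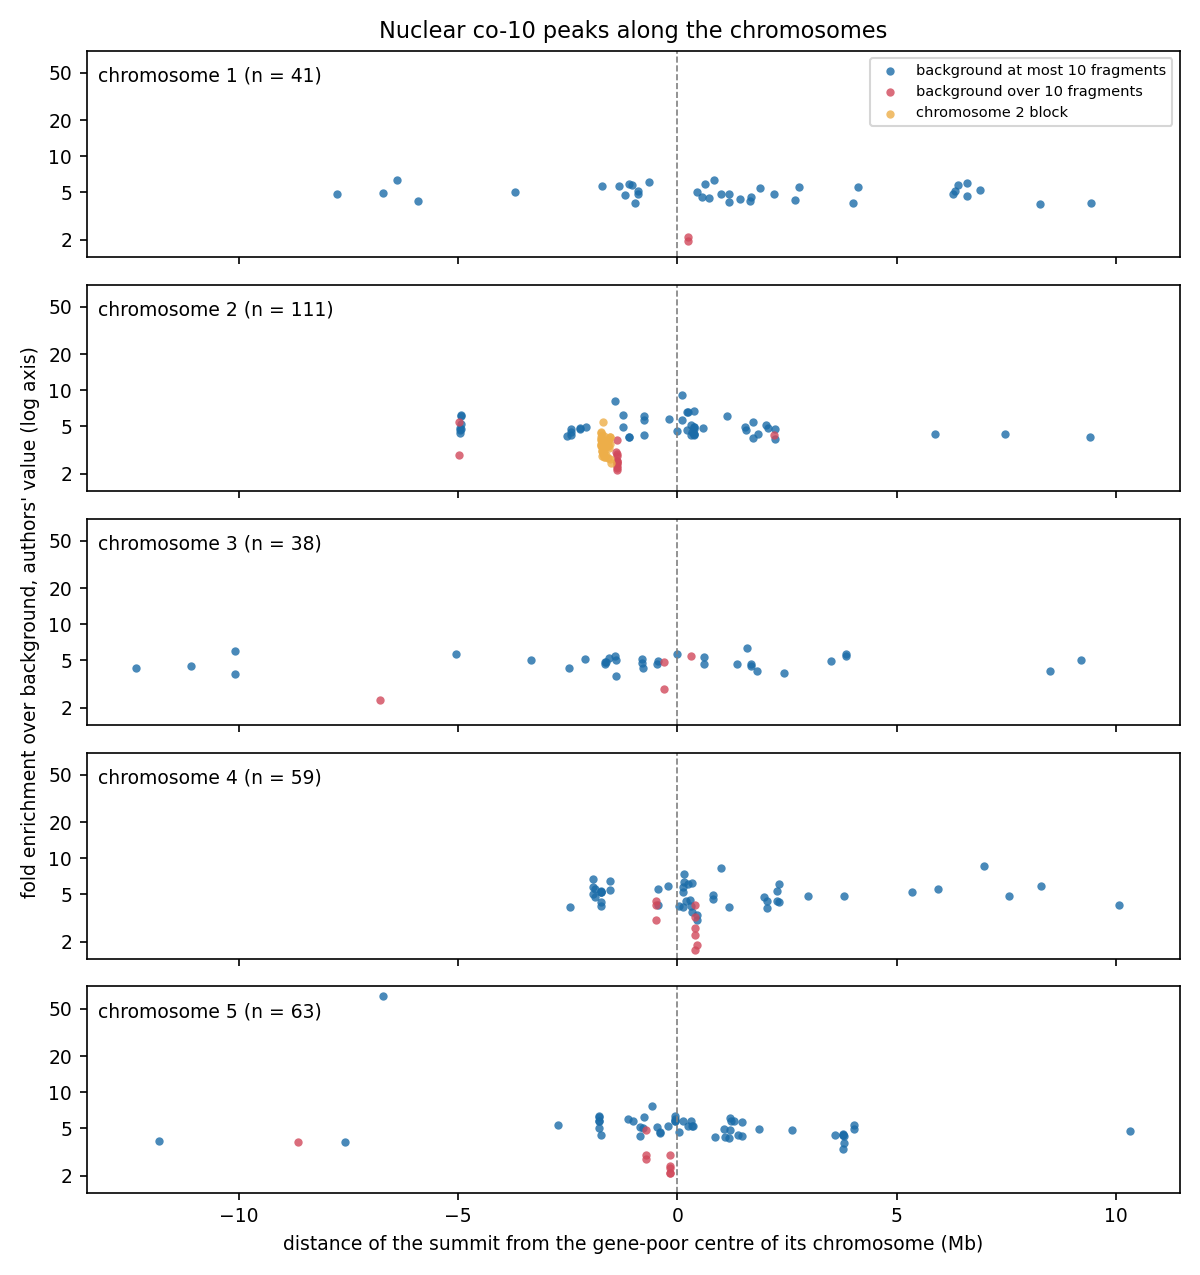
Fold enrichment of each nuclear co-10 peak (log axis) against the distance of its summit from the gene-poor centre of its chromosome in Mb, in 1 panel per chromosome. Of the 268 peaks outside the block, 208 lie within 3 Mb of the dashed line. The chromosome 2 block is the dense group left of the line, and the point at 63.9 on chromosome 5 is CO.

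The 230 low-background members were mostly in pseudogene annotations. These held 167 of the summits (72.6%, Wilson 95% interval 66.5 to 78.0). Protein-coding genes held 23 (10.0%), their 1000 bp flanks 4, and 36 lay farther away. Within 3 Mb of the centre, 134 of 174 such summits (77.0%) were in pseudogenes, which make up 27.8% of the bases there. Beyond 3 Mb the share was 33 of 56 (58.9%, 45.9 to 70.8), where pseudogenes make up 2.27% of the bases. Over all 268 co-10 summits outside the block, high-background ones included, the shares in pseudogenes were 64.9% within 3 Mb and 55.0% beyond. Over all 35S:CO summits outside the block they were 34.8% and 1.47%. In both zones the co-10 shares were above the share of the bases. The 168 pseudogene summits outside the block, high-background peaks included, fell in 138 of the 4843 nuclear pseudogenes. Of these loci, 26 held more than 1 summit, 56 summits in all.

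**Figure D3:**
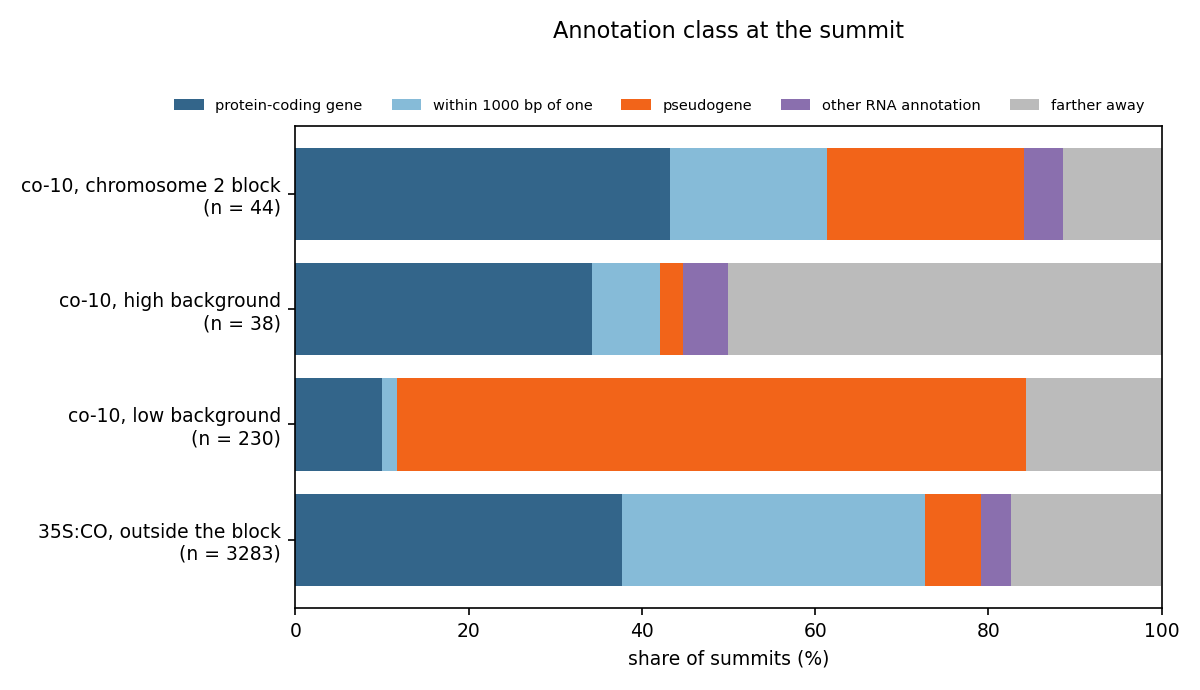
Share of summits (%) in each annotation class for the co-10 block, the co-10 high-background and low-background peaks outside it, and the 35S:CO peaks outside the block. Pseudogenes make up 72.6% of the low-background co-10 bar and 6.43% of the 35S:CO bar, and flanks of protein-coding genes make up 1.74% and 35.0%.

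After CO, the strongest low-background members were at or beside such annotations, with 1 exception. The peak from 5099744 to 5100100 on chromosome 2 lay within 1000 bp of the pseudogene AT2G12510, at 9.13 from 19 fragments. The exception was a peak in the protein-coding gene AT4G19270 (chromosome 4, 10537617 to 10538023), at 8.60 from 13 fragments. Peaks beside AT4G07747 and AT2G07740 reached 8.26 and 8.11. Summits inside pseudogenes reached 7.67 in AT5G29975, 7.39 in AT4G06604, 6.75 in AT4G03650, 6.74 in AT2G13050, 6.60 in AT2G12740 and 6.57 in AT2G12750. A peak beside AT4G04155 had 6.49. All of them rested on 11 to 22 fragments. Over all 230 peaks, 205 (89.1%) had a pileup of 12 fragments or fewer.

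Neighbouring members formed runs. Of the low-background peaks, 122 (53.0%) had another within 10000 bp. With gaps of up to 50000 bp allowed, the run with the most peaks, 10 from 5302471 to 5384471 on chromosome 2, had all its summits in pseudogenes, 3 of them in AT2G13080. Its widest gaps were over 10000 bp. None of the 10 members of this run was overlapped by a 35S:CO peak, against 20.0% of all low-background members. In a run from 10099139 to 10145463 on chromosome 5, 3 of the 6 members were overlapped. Near the upper end of chromosome 2, 7 peaks lay between 43026 and 67008, and 6 of them were in the pseudogenes AT2G01034, AT2G01037 and AT2G01040. On the short arm of chromosome 4, an arm known for a heterochromatic knob, 14 low-background peaks lay between 1099539 and 2004591. The first of the 14 ended at 1100005 and the next began at 1619730. None of the 14 was overlapped by a 35S:CO peak. The 35S:CO list had 18 peaks over the whole interval, and how near they lay to the 14 was not examined. These runs were picked after their values were seen. At counts this small, differences of single runs from the share of the group or from each other were not tested.

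A run on chromosome 5 had the same pattern in 2 loci. The pseudogene AT5G39155 held 3 summits and the pseudogene AT5G39185 held 3. The starts of corresponding peaks were 13567, 13565 and 13481 bp apart. Fold enrichments were 4.34, 4.44 and 3.36 in AT5G39155, and 4.40, 4.33 and 3.72 in AT5G39185. Backgrounds ran from 3.46 to 3.77 fragments, above the group median of 0.956. Whether these loci share sequence was not tested, since no genome sequence was used here.

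Protein-coding genes with a co-10 summit were few. Of 27444 nuclear protein-coding genes, 88 (0.321%) had one in the gene or within 1000 bp, against 3093 (11.3%) in 35S:CO. The lists differ in length, with 312 nuclear peaks in co-10 and 3287 in 35S:CO. Among the 23 of 24 clock genes that matched the gene table, 0 had a co-10 summit and 16 had a 35S:CO summit. Among the 18 of 19 flowering and CO family genes that matched, 1 had a co-10 summit, which was CO, and 12 a 35S:CO summit. The CO paralogues COL1, COL2, COL3, COL4 and COL5 had none in co-10. With a co-10 summit at 0.321% of all genes, an absence from gene lists this short says little.

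The strongest summits inside protein-coding genes after CO and AT4G19270 had low pileups. The peak in AT4G22475 and the overlapping AT4G22485 had a fold enrichment of 5.84 from 10 fragments. CINV1, a cytosolic invertase that splits sucrose, had 5.61 from 11. SUO, needed for translational repression by microRNAs, had 5.45 from 13 fragments at 17737483 to 17737887 on chromosome 3. The nearby gene AT3G48060 had 5.60 from 14, at 17746441 to 17746752. The SUO peak overlapped a 35S:CO peak of 3.77 and that in AT3G48060 overlapped none. AT1G58602 and AT5G39770 had 5.28 each, AT5G32590 had 5.20 and AT1G56530 had 5.16.

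The 38 high-background members lay at 12 places, and 33 of them had another such peak within 10000 bp. Their median background of 69.8 fragments was 73.0 times that of the low-background peaks. Fold enrichments were 1.72 to 5.47, from pileups of 55 to 579 fragments. The widest member, 12993 bp, spanned 14191938 to 14204930 on chromosome 3 and covered the ribosomal RNA genes AT3G41768 and AT3G41979. Its fold enrichment was 5.45. At the upper end of chromosome 2, a peak of 8406 bp from 1109 to 9514 covered the ribosomal RNA genes AT2G01010 and AT2G01020, at 5.47. These peaks had the highest pileups of the list, 579 and 577.

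Most of the other high-background members lay near the gene-poor centres. A group of 11 peaks lay between 3606995 and 3627539 on chromosome 2, over AT2G07981 and AT2G08986, at 2.18 to 3.83. On chromosome 4, 6 peaks lay between 3950532 and 3986290 and 3 between 3054421 and 3061384. On chromosome 5, 5 lay between 11723461 and 11736234 and 3 between 11184541 and 11188497. A pair on chromosome 3, from 13588738 to 13592603, reached 4.83, and a pair in AT1G40104 on chromosome 1 reached 2.13. In all, 34 of the 38 were within 3 Mb of the centre. Away from it lay the pair from 1109 to 10339 at the upper end of chromosome 2, a peak in AT5G10340 (3.81) and a peak touching AT3G20362 and AT3G20365 (2.31). A peak in AT2G16586 (4.20) lay 2.19 Mb from the centre. Of all 38, 19 had no protein-coding gene within 1000 bp and no other annotation at the summit.

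Overlap with 35S:CO was counted for each group. Of the 312 members, 74 (23.7%) overlapped a 35S:CO peak by at least 1 bp, and 77 of the 3287 nuclear 35S:CO peaks (2.34%) overlapped a member. The 35S:CO peaks covered 1.55% of the nuclear bases. Overlap was found for 26 of 38 high-background members (68.4%, Wilson 95% interval 52.5 to 80.9), 46 of 230 low-background members (20.0%, 15.3 to 25.6) and 2 of 44 in the block (4.55%, 1.26 to 15.1). From the other side, 28 of the 29 high-background 35S:CO peaks outside the block overlapped a member. Of the 3254 low-background ones, 47 did (1.44%).

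At the high-background places, the lists resembled each other in position and in order of strength. In the 28 overlapping pairs, summits were a median of 6 bp apart, and 24 pairs were within 100 bp. The pairs come from 1 list a genotype, all have a high background, and some share a peak. Across the pairs the Spearman correlation of fold enrichment was 0.939, as a description. Fold enrichment was higher in co-10 in 27 of 28 pairs, with medians of 3.02 and 2.32. The median pileup was lower in co-10, at 222 against 259 fragments, and so was the median background, at 84.4 against 121. The peak over AT2G01010 had 5.47 in co-10 and 3.74 in 35S:CO, from pileups of 577 and 582 over backgrounds of 105 and 155. The exception was the peak from 3056607 to 3056916 on chromosome 4, at 3.04 in co-10 and 3.29 in 35S:CO.

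At the low-background places, they resembled each other less. Without CO, 46 pairs had summits a median of 144 bp apart, and 16 pairs were within 100 bp. The Spearman correlation of fold enrichment was -0.05 over these 46 pairs. Median pileups were 9.5 fragments in co-10 and 12 in 35S:CO, and the added 1 in the ratio weighs on such low counts. Fold enrichment was higher in co-10 in 32 of the 46 pairs, with medians of 4.83 and 4.17. A pair needs a called peak in both lists. Low-background peaks outside the block started at 3.03 in co-10 and at 2.33 in 35S:CO. The calling may therefore favour this direction, which was not tested. The median background was again lower in co-10, at 1.06 against 1.98 fragments. The pairs named next are those with the highest co-10 values, a choice that favours higher values in co-10. The pair beside AT2G12510 had the same summit in both lists, with 9.13 in co-10 and 6.68 in 35S:CO. Other pairs were 8.60 and 4.47 in AT4G19270, 8.26 and 4.64 beside AT4G07747, 7.67 and 3.29 in AT5G29975 and 7.39 and 4.56 in AT4G06604. AT4G06664 had 6.21 in co-10 and 7.07 in 35S:CO. AT5G28120 had a pair of 6.37 and 3.59. AT5G28110 had 6.23 and 3.86, and AT1G41900 had 6.34 and 3.51. Over all 46 pairs, the highest rank of the 35S:CO peaks by fold enrichment was 1078 of 3287, and the median rank was 2440.

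**Figure D4:**
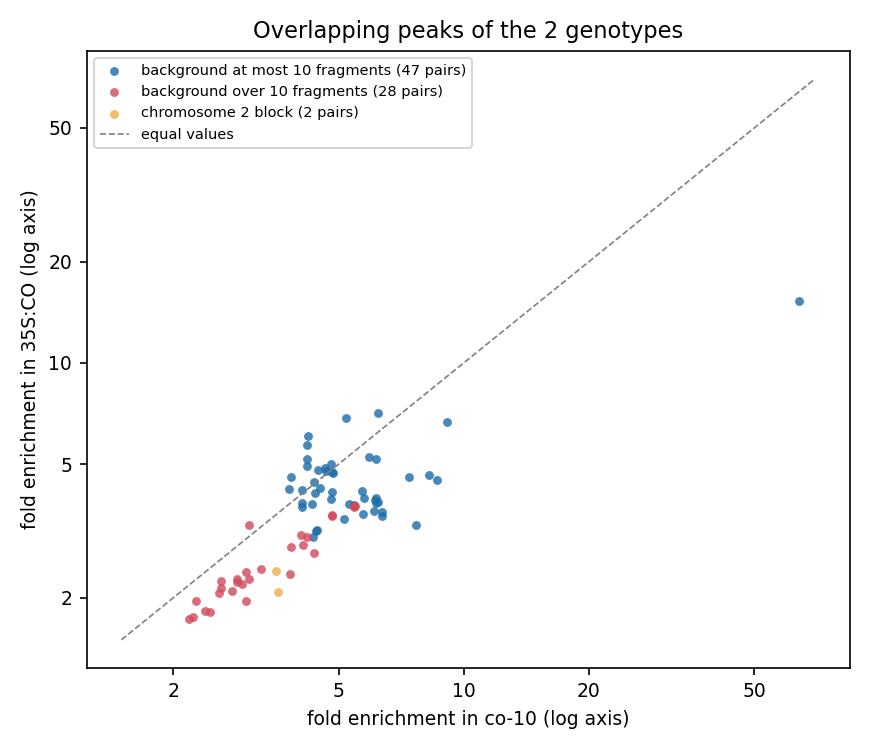
Fold enrichment in 35S:CO (vertical) against fold enrichment in co-10 (horizontal) for the 77 overlapping pairs of nuclear peaks, on log axes, with a line of equal values. Of the 28 high-background pairs, 27 lie below the line, where co-10 is higher (medians 3.02 in co-10 and 2.32 in 35S:CO), the 47 low-background pairs scatter, and the point at 63.9 in co-10 and 15.3 in 35S:CO is CO.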

How the data were processed

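Peak lists of anti-CO ChIP-seq were used, 1 for co-10 and 1 for 35S:CO. Per the submitters' processing notes, FastQC, Bowtie, MACS2 and deepTools were used with genome build TAIR10. Versions, thresholds and the treatment of reads with several matches are not given in the sources used here. The lists were deposited in narrowPeak format: fold enrichment (a ratio), −log10 p, −log10 q, a score equal to 10 times the −log10 q cut to a whole number, and the summit offset in bp. Coordinates are the authors' own, counted from 1.

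Pileup and background were recovered from the deposited fold, taken as (pileup + 1) / (background + 1), and the Poisson p-value, trying pileups to 4999. The deposited −log10 p was met within 0.001 for 311 of 312 members and for 3287 of 3287 nuclear 35S:CO peaks, and within 0.00541 for the other member. The lists do not hold the depth of any sample. Wilson 95% intervals cover counting error only.

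Summits were annotated with RefSeq genes of TAIR10.1, not the authors' build, so the coordinates of those genes are not printed. The class at the summit was assigned in the order protein-coding gene, pseudogene, other RNA, within 1000 bp of a protein-coding gene, farther away. In the written plan all annotations other than protein-coding genes came second together, and they were split here. Genes were named by a fixed rule: CO, the 12 strongest members outside the block, the 6 strongest in it, the 10 strongest shared and the 10 strongest in protein-coding genes. Further loci were named after their values were seen. The members, groups and lists were chosen with earlier results of these data known. The table does not describe repeats or organellar functions, so lists of such words found 1 and 0 of 232 annotations at or near summits. The comparison of block proteins with mitochondrial proteins was not run. Python 3.11.15, pandas 2.3.3, numpy 2.4.6, scipy 1.17.1 and matplotlib 3.10.9 were used. Alternatives covered q-value limits, overlap rules, the annotated position, flank width, block limits and the centre.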

Additional observations from a re-analysis of the deposited data

How the results depend on the processing

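No paired analysis was possible because the replicates of a genotype share 1 list, in which no value is theirs alone. No replicate could be left out either. Of 26 alternatives to 10 results, 17 stayed within the counting interval, within 1.5 times the count or within 0.5 of the interquartile range of a median. Another 9 moved further. A −log10 q of at least 5 left 115 members and one of at least 10 left 39, by construction. With at least 5, the median fold enrichment outside the block was 5.69, the share in protein-coding genes 20.4% and the share in pseudogenes 40.8%. High-background peaks, few of which lie in pseudogenes, make up more of that subset. Among the low-background peaks of that subset alone, the pseudogene share was also lower than in the whole low-background group. Limiting the background to at most 10 fragments, an alternative added after the data were seen, gave 72.6% in pseudogenes. The overlap with 35S:CO fell from 74 to 41 members when summits had to lie within 100 bp, and to 35 when both peaks needed a −log10 q of 5 or more. The share near the centre was 67.2% within 2 Mb instead of 3, a smaller zone with 16.6% of the bases instead of 25.0%. The low-background members rest on a median of 9 fragments, so a lone region of that group has little depth behind it.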

Other observations

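The highest recovered backgrounds of nuclear peaks resembled those of plastid peaks in both lists. In co-10 they reached 105 fragments at nuclear and 99.3 at plastid peaks, and in 35S:CO they reached 157 and 158. The medians were lower at high-background nuclear peaks outside the block, 69.8 against 94.4 in co-10 and 118 against 156 in 35S:CO. Over the matched mitochondrial and block pairs, the median backgrounds were 5.63 and 5.90 fragments. The cause of these values was not tested.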
